A study of Homo sapiens with 6 samples.

Results

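The comparison described here sets HEK293t cells that stably expressed shlinc00598#2, an shRNA against the long non-coding RNA linc00598, against HEK293t cells that stably expressed a control shRNA (shCTL). It rests on 4 of the study's 6 Illumina HumanHT-12 v4 arrays: replicates 1 and 2 of shlinc00598#2, chosen by their titles, and replicates 1 and 2 of shCTL. The other line, shlinc00598#3, carries a different shRNA against the same RNA and is given only where it shows how shlinc00598#2 differs from it or is like it. HEK293t is a line derived from human embryonic kidney that expresses the SV40 large T antigen. The shRNAs were delivered by lentivirus, total RNA was isolated from each line, and the arrays were paired by replicate number. Each shRNA is represented by 1 stable line, so an effect of the shRNA and a property of that line cannot be told apart, and nothing in the labels states that replicates came from separate cultures. All p-values therefore measure the spread between these arrays, which may be technical. Genes were kept where a probe was detected (p under 0.05) on both arrays of shlinc00598#2 or of shCTL, which left 20811 of 47321 probes, or 16836 genes and unnamed probes (12034 named genes and 4802 probes without a single gene symbol) of 37254 on the array.

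Long non-coding RNAs are transcripts with no known protein product, and some of them act on the transcription of other genes by binding chromatin or proteins that regulate it. An shRNA is processed by Dicer and loaded into an Argonaute complex, which then cleaves or represses RNAs with a matching sequence. linc00598 lies on chromosome 13 between FOXO1, a forkhead transcription factor restrained by insulin and growth factor signalling, and COG6, which belongs to a complex that tethers vesicles to the Golgi. Cyclin D2, encoded by CCND2, drives cells from G1 into S phase with CDK4 or CDK6.

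Levels are quantile-normalized log2 intensities, differences are shlinc00598#2 minus shCTL on that scale, and each ± is a limma standard error. Between 20864 and 22134 probes per array were detected, with median intensities of 105.4 to 126.2 before normalization. The replicates differed more than the lines did: 6293 of 16836 genes and unnamed probes (37.4%) differed between replicate 2 and replicate 1 (limma, adjusted p under 0.05), and replicates were what separated on principal component 1 (69.8% of variance). LINC00598 itself has no named probe, so its knockdown cannot be read here, and FASLG was not detected on any array. In the processed table that the authors also deposited, 4 of the 6 columns hold an array other than the one their sample names, so the table before normalization gave every value unless stated otherwise. Of 10 genes that mark HEK293-like cells, 9 were measured, with a median difference of -0.08, and PAX2 was below detection. Of 18 markers of blood, endothelium, fibroblasts, liver, epithelium and muscle, 11 were below detection, PTPRC, CD3E, HBB, PECAM1, VWF and DES among them. The 7 measured had a median difference of -0.06. They included COL1A1 and COL3A1 of fibroblasts, ALB of liver and CDH1 of epithelium, each detected on both arrays of shlinc00598#2 and of shCTL.

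Few single genes separated shlinc00598#2 from shCTL beyond the spread of the arrays, and the larger differences were mostly toward lower levels. With the replicate number as a block, limma called 3 of 16836 genes and unnamed probes at a Benjamini-Hochberg adjusted p under 0.05 (0.0178%), all 3 lower, and none higher (0%). An unadjusted p under 0.05 was reached by 2238 (13.3%), 1238 of them lower (7.35%) and 1000 higher (5.94%). By size, 192 were at least 1.4-fold lower in the mean of both replicates (1.14%) and 76 at least 1.4-fold higher (0.451%). In both replicates separately, 78 were at least 1.4-fold lower (0.463%) and 18 at least 1.4-fold higher (0.107%). Replicate 1 alone had 412 lower (2.45%) and 397 higher (2.36%), and replicate 2 alone had 339 lower (2.01%) and 172 higher (1.02%). Over all 16836, 4937 were lower in both replicates (29.3%), 4845 higher in both (28.8%) and 7053 had opposite signs (41.9%). The lower genes made up 71.6% of those past 1.4-fold in the mean, 58.3% with neqc background correction and 28.8% when arrays were scaled to their medians, so this imbalance depends on the scaling. Single arrays decided the count of calls as well: without shlinc00598#2 replicate 1 none was called, without shlinc00598#2 replicate 2 none was called lower and 1 higher, without shCTL replicate 1 there were 124 lower and 41 higher, and without shCTL replicate 2 there were 150 lower and 134 higher. Without the replicate block no gene was called, and 309 had an unadjusted p under 0.05.

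Across genes, the differences of replicate 1 and replicate 2 were weakly related (Pearson r = 0.264, Spearman correlation 0.243 over 16836 genes and unnamed probes, which are not independent replicates), with standard deviations of 0.24 and 0.22. Of the 78 lower in both replicates, 68 were named genes, and in 55 both shlinc00598#2 arrays lay below both shCTL arrays. Among all genes 2243 (13.3%) had such separated arrays in that direction. Of the 18 higher in both, 11 were named and 11 had both shlinc00598#2 arrays above both shCTL arrays, as did 2053 of all genes (12.2%). The adjusted p-values of the 78 lay between 0.049 and 0.176, and those of the 18 between 0.0725 and 0.171. Both sets were chosen by their differences on these same arrays. Low p-values and separated arrays therefore follow in part from the choice and are no separate support. HELZ2 stood just inside the 1.4-fold limit, at -0.49 and -0.77 in replicates 1 and 2, while HBQ1 (-0.59 and -0.48), GNG4 (-0.48 and -0.95) and POLR2L (0.70 and 0.48) stood just outside it.

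**Figure D1:**
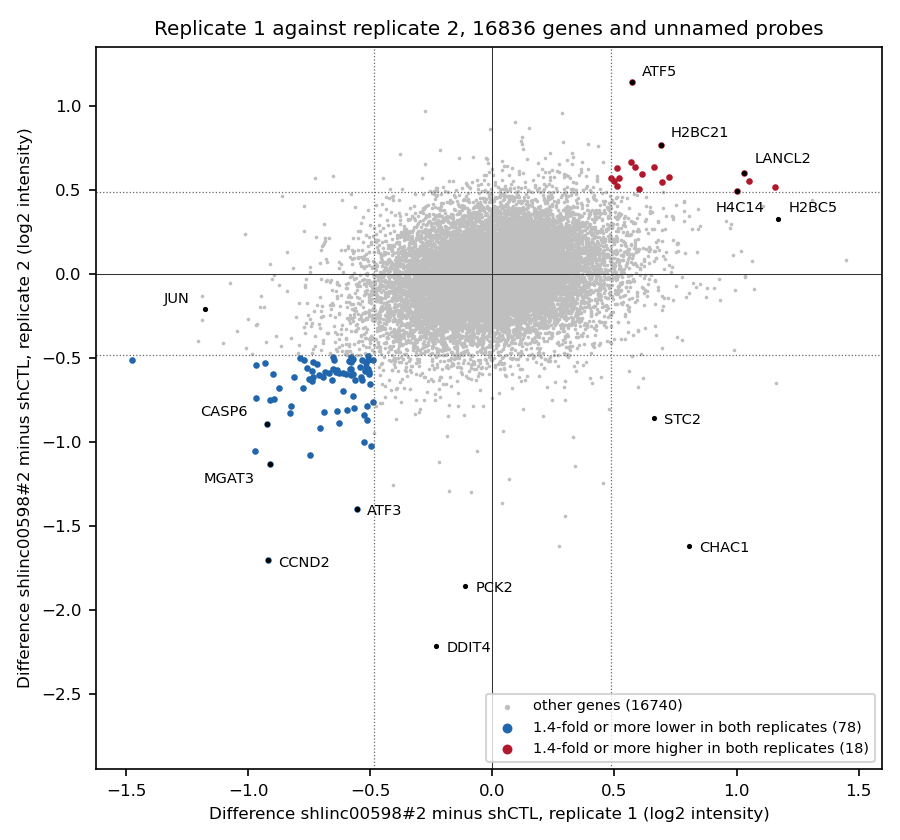
Each point is 1 gene or unnamed probe, with the log2 difference of shlinc00598#2 minus shCTL in replicate 1 on the x axis and in replicate 2 on the y axis, and lines at 1.4-fold. The 78 points lower in both replicates and the 18 higher in both are those past the lines by definition. Over all points the standard deviations are 0.24 and 0.22.

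The 3 calls were CASP6, MGAT3 and a probe without a gene name. CASP6, an effector caspase that cuts lamins and other proteins during apoptosis, had log2 intensities of 7.64 and 8.04 in shlinc00598#2 cells, against 8.57 and 8.94 in shCTL cells. Both shlinc00598#2 arrays lay below both shCTL arrays, with differences of -0.92 and -0.89 in replicates 1 and 2, and CASP6 fell 1.88-fold (mean -0.91 ± 0.10, limma adjusted p = 0.049). Its 2 dimmer probes read -0.42 and -0.52. MGAT3, which adds the bisecting N-acetylglucosamine to N-glycans, had 9.15 and 8.71 in shlinc00598#2 cells, against 10.06 and 9.84 in shCTL cells. The groups did not overlap, and MGAT3 fell 2.03-fold (-1.02 ± 0.11, adjusted p = 0.049). Probe ILMN_1792389 fell 2.02-fold, with 8.96 and 8.50 in shlinc00598#2 cells, against 9.94 and 9.55 in shCTL cells (-1.01 ± 0.11, adjusted p = 0.049). These calls sit at the threshold. Over the alternatives the adjusted p of CASP6 ran from 2.11e-05 with median scaling to 1 without the replicate block, and was 0.25 without shlinc00598#2 replicate 1 and 0.126 without shlinc00598#2 replicate 2. That of MGAT3 ran from 3.68e-06 to 1 over the same 2 settings, and was 0.223 without shlinc00598#2 replicate 1 and 0.126 without shlinc00598#2 replicate 2. In the authors' processed values, read by their own column names, CASP6 stood at 0.45 and MGAT3 at 0.33.

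Because CASP6 carries one of the 3 calls, the 250 bases before its transcription start are given from the RefSeq promoter table (GRCh38.p14, chr4:109703446-109703695, minus strand). They hold none of the 5 short motifs searched, on either strand, in the promoters of the groups described further on (the ATF4 element TGATGNAA, the forkhead element GTAAACA, the hypoxia core ACGTG, the box CCAAT and the TATA box TATAAA), and so no capitals.
CASP6: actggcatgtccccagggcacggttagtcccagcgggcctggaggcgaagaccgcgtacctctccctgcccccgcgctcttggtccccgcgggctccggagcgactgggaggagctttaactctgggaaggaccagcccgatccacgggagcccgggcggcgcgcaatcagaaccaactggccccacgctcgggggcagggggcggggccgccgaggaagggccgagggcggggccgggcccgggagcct

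6 other genes with large differences toward lower levels had separated arrays, and none passed the test. SIDT2, a lysosomal membrane protein that can carry RNA, had 9.95 and 9.84 in shlinc00598#2 cells, against 10.78 and 10.67 in shCTL cells, a difference of -0.83 in each replicate (adjusted p = 0.0621). ARHGEF3, a guanine nucleotide exchange factor, had 9.05 and 9.21 in shlinc00598#2 cells, against 9.88 and 10.00 in shCTL cells (-0.81 ± 0.10, adjusted p = 0.0621). In both genes the groups were apart by nearly the same amount in the 2 replicates. FBLN1, an extracellular matrix glycoprotein, had 10.87 and 10.09 in shlinc00598#2 cells, against 11.57 and 11.01 in shCTL cells (-0.81 ± 0.11, adjusted p = 0.0725), and its other kept probes read -0.56 and -0.30. MMP23B, a membrane-bound metalloproteinase, had 8.80 and 8.10 in shlinc00598#2 cells, against 9.77 and 8.84 in shCTL cells (-0.85 ± 0.12, adjusted p = 0.0725), although its probe may also read its near-identical copy MMP23A. TNMD, a membrane glycoprotein of tendons, differed by -0.78 ± 0.11 and UGT3A2, a UDP-glycosyltransferase, by -0.83 ± 0.15. In all 6 of these genes both shlinc00598#2 arrays lay below both shCTL arrays.

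A second set differed within each replicate but not across them, because the shlinc00598#2 array of replicate 1 was brighter than the shCTL array of replicate 2. The largest mean difference of all, that of CCND2, was of this kind, with 11.45 and 8.95 in shlinc00598#2 cells, against 12.37 and 10.65 in shCTL cells. The difference of CCND2 was -0.92 in replicate 1 and -1.71 in replicate 2, or 2.49-fold lower on average (-1.31 ± 0.19, adjusted p = 0.0725), and its second probe read -1.25. FEZ1, a kinesin adaptor of axonal transport, had 10.39 and 8.82 in shlinc00598#2 cells, against 11.14 and 9.90 in shCTL cells (-0.91 ± 0.12, adjusted p = 0.0725), while its 3 dimmer probes read -0.33, -0.12 and -0.10. TXNIP, which binds thioredoxin and restrains glucose uptake, had 12.65 and 10.13 in shlinc00598#2 cells, against 13.28 and 11.01 in shCTL cells (-0.76 ± 0.14, adjusted p = 0.0978). BASP1, a membrane protein of growth cones, had 10.88 and 9.19 in shlinc00598#2 cells, against 11.66 and 9.87 in shCTL cells (-0.73 ± 0.10, adjusted p = 0.0725). ATF3, a transcription factor induced by stress, differed by -0.55 and -1.40 (-0.98 ± 0.20, adjusted p = 0.12). None of these passed the test. The amino acid transporter SLC7A3 and the glucose transporter SLC2A3 were also lower in both replicates, with means of -0.76 and -0.76.

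**Figure D2:**
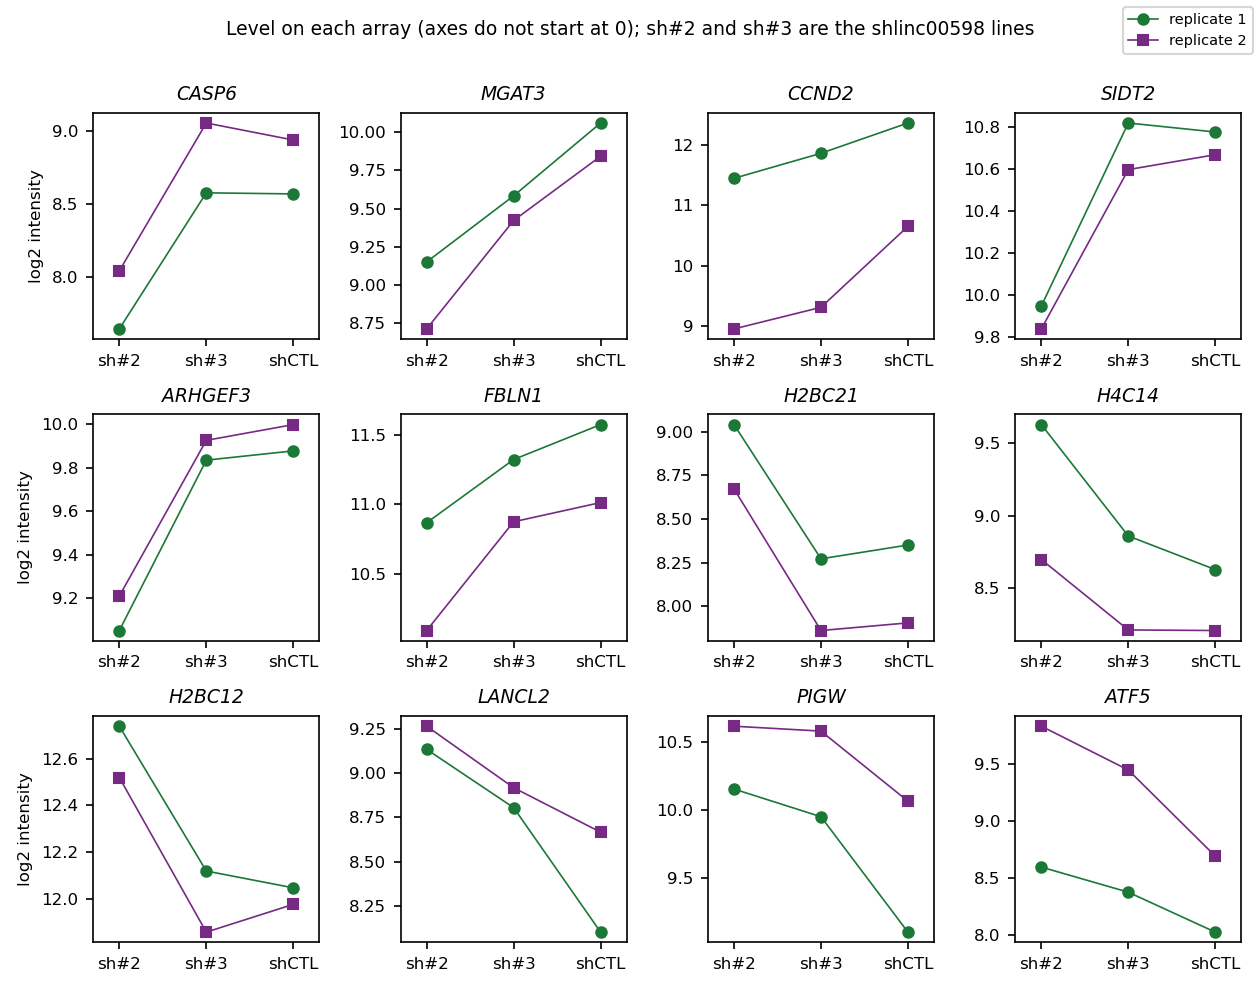
Log2 intensity (y axis, not starting at 0) of 12 named genes on each array, with shlinc00598#2 at the left, shlinc00598#3 in the middle and shCTL at the right, circles for replicate 1 and squares for replicate 2. In CASP6, SIDT2 and ARHGEF3 both shlinc00598#2 arrays lie apart from the other 4, and in CCND2 the 2 replicates lie further apart than the lines.

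At least 1.4-fold higher in both replicates were 18 genes and probes, against 78 lower, and none of the 18 passed the test. With median scaling the balance turned, with 90 higher and 30 lower in both replicates and 314 called higher and 120 called lower. The 11 named genes past 1.4-fold in both replicates were ATF5, LANCL2, PIGW, H4C14, H2BC21, DPH2, ZSCAN5A, H2BC12, SNORA73A, GALR2 and RSU1. LANCL2, a LanC-like protein, had 9.13 and 9.26 in shlinc00598#2 cells, against 8.10 and 8.67 in shCTL cells (0.82 ± 0.13, adjusted p = 0.0841). PIGW, which acylates inositol during GPI anchor synthesis, had 10.15 and 10.62 in shlinc00598#2 cells, against 9.11 and 10.07 in shCTL cells (0.80 ± 0.13, adjusted p = 0.0841), and its dimmer probe read 0.17. The arrays of both genes were apart. DPH2, an enzyme of diphthamide synthesis on elongation factor 2, differed by 0.65 ± 0.11 (dimmer kept probe 0.19), and RSU1, a focal adhesion protein, by 0.52 ± 0.11 (dimmer probe 0.05). ZSCAN5A, a zinc finger protein, differed by 0.62 ± 0.10, and the small nucleolar RNA SNORA73A, which has a near-identical copy, by 0.61 ± 0.11. GALR2, a galanin receptor, was detected on both shlinc00598#2 arrays and on neither shCTL array, and was at least 1.18-fold higher when the dimmest detected probe of each shCTL array set the bound.

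Histone genes made up 3 of the 11 named genes past 1.4-fold higher in both replicates. Most histone genes are transcribed in S phase into messages without a poly(A) tail that end in a stem-loop, and some also give polyadenylated messages. Of 63 histone genes on the array, 24 were measured. Among them 17 were higher in both replicates, 2 lower in both and 5 opposite in sign, beside 28.8% higher and 29.3% lower among all genes, and their median difference was 0.24 (0.36 in replicate 1 and 0.17 in replicate 2) against 0.00 over all genes. In the mean, 8 were at least 1.4-fold higher and none lower, beside 0.451% and 1.14% of all genes. An unadjusted p under 0.05 was reached by 12, all higher, beside 5.94% of all genes. The median stayed above 0 with median scaling (0.30) and with neqc (0.46), and was 0.18 to 0.35 with single arrays of the 2 lines left out. It was 0.10 with no detection filter and -0.05 in the authors' processed values, where 4 of the 6 columns hold another array. None passed the adjusted test. A gene could enter these counts through detection in shlinc00598#2 alone, as H3C10 did, and such genes tend to be higher by selection.

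H2BC21, which encodes an H2B protein, had 9.04 and 8.67 in shlinc00598#2 cells, against 8.35 and 7.91 in shCTL cells (0.73 ± 0.10, 1.66-fold, adjusted p = 0.0725). H2BC12, another H2B gene and the brightest of the 3, had 12.74 and 12.52 in shlinc00598#2 cells, against 12.05 and 11.97 in shCTL cells (0.62 ± 0.11, adjusted p = 0.0841), and its second probe read 0.72. H4C14, an H4 gene, had 9.63 and 8.70 in shlinc00598#2 cells, against 8.63 and 8.21 in shCTL cells (0.75 ± 0.13, adjusted p = 0.089). In all 3 both shlinc00598#2 arrays lay above both shCTL arrays. H2AC18 differed by 0.43 and 0.76 in replicates 1 and 2, with 0.17 for its dimmer probe. Of the genes named after their values were seen, H2BC5 differed by 1.17 and 0.33, H4C15 by 0.80 and 0.34, H4C8 by 0.82 and 0.27, and H3C10 by 0.68 and 0.32. H3C10 was detected on both shlinc00598#2 arrays and on 1 shCTL array, so it passed the filter only through the line where it is higher. The dimmer kept probe of H2BC5 read 0.10 and 0.39. Histone genes share much of their coding sequence, so a probe may read more than 1 of them.

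In the other line the histone genes lay near the control. The median over the 24 histone genes was -0.01 in shlinc00598#3 cells against the same shCTL arrays, and H2BC21 there had 8.27 and 7.86 on its 2 arrays, a difference of -0.06 from shCTL. The difference between the lines was 0.79 ± 0.10 (adjusted p = 0.0788) for H2BC21, 0.64 ± 0.11 (adjusted p = 0.131) for H2BC12 and 0.63 ± 0.13 (adjusted p = 0.209) for H4C14, none past the test. Between the lines 11 of the 24 had an unadjusted p under 0.05, beside 8.44% of all genes, and none was called.

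**Figure D3:**
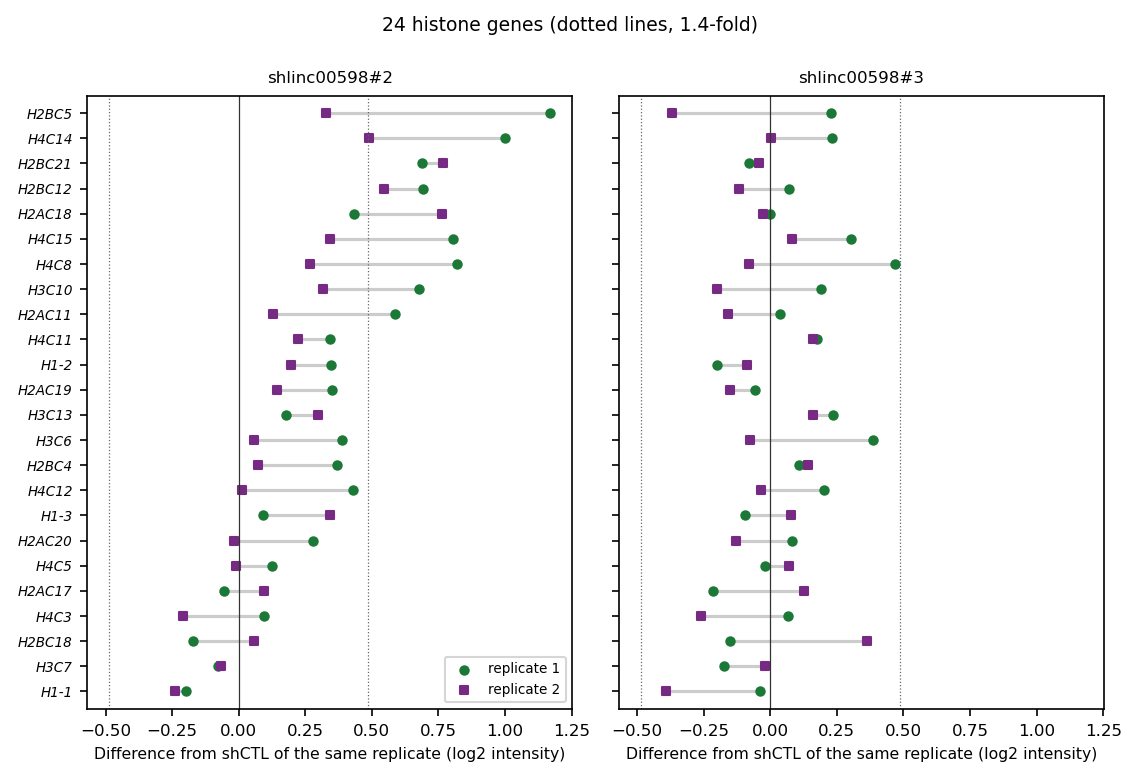
Log2 difference from the shCTL array of the same replicate (x axis) for the 24 measured histone genes, with shlinc00598#2 in the left panel and shlinc00598#3 in the right, circles for replicate 1 and squares for replicate 2. In shlinc00598#2 cells 17 of 24 lie above 0 in both replicates, while the median of shlinc00598#3 cells is -0.01.

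Histone promoters often carry CCAAT boxes and a TATA box, and the promoter of H2BC21, the histone gene with the lowest p, is printed as the example (GRCh38.p14, chr1:149886683-149886932, minus strand). Capitals mark CCAAT on either strand (ATTGG is its reverse complement), at 170, 142 and 77 bases before the start. A TATAAA match lies further down, and its reverse complement TTTATA lies before the first capitals.
H2BC21: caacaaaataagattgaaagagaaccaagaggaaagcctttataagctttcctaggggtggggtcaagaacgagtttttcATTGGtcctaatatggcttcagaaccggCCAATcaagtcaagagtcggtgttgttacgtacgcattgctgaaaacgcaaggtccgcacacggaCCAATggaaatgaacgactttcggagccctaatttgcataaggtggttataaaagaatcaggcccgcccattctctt
In windows of 300 bases around the start, CCAAT was held by 17 of the 23 histone genes with a promoter in the table (73.9%), by 43.8% of tested genes and by 34.6% of all 35116 promoters. TATAAA was held, at any place in the window, by 17 of 23 (73.9%), by 8.5% of tested genes and by 11.5% of all promoters. The 17 with CCAAT had a median difference of 0.24 and the 6 without it 0.41. The 6 without it are all H4 genes, and the 17 with it are H1, H2A, H2B or H3 genes. The motif and the histone class cannot be told apart here. CCAAT and TATAAA were searched on both strands, and they were added after the values were seen.

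Of the 31 gene lists read, that of the integrated stress response had the replicates furthest apart. In this response, phosphorylated eIF2α slows translation while the transcription factor ATF4 turns on genes for amino acid synthesis, transport and stress signalling. Of 46 such genes on the array 44 were measured. Their median difference was 0.06 in replicate 1 and -0.67 in replicate 2, against 0.00 over all genes in each. In replicate 2, 41 of 44 were lower, whereas 15 were lower in replicate 1. At least 1.4-fold lower in replicate 2 were 29, beside 2.01% of all genes. In all, 26 of the 44 had opposite signs, 15 were lower in both replicates (34.1%) and 3 higher in both (6.82%). The shares over all genes were 41.9%, 29.3% and 28.8%. For the 44 the mean gave -0.25, and 12 were at least 1.4-fold lower in it, beside 1.14% of all genes. An unadjusted p under 0.05 was reached by 13 lower and 1 higher, beside 7.35% and 5.94% of all genes. With replicate 2 of shCTL left out the median of the list was 0.06, and with replicate 2 of shlinc00598#2 left out it was -0.03. Leaving out replicate 1 of shlinc00598#2 gave -0.46, and leaving out replicate 1 of shCTL gave -0.62, so the direction rested on the replicate 2 arrays. The other line had the same split. In shlinc00598#3 cells, against the same shCTL arrays, the median was -0.01 in replicate 1 and -0.57 in replicate 2.

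DDIT4, an inhibitor of mTORC1 that stress and hypoxia induce, had the largest difference of the list in replicate 2, with 11.21 and 9.48 in shlinc00598#2 cells, against 11.44 and 11.70 in shCTL cells. The shlinc00598#2 arrays lay below both shCTL arrays, with differences of -0.23 in replicate 1 and -2.22 in replicate 2 (-1.22 ± 0.36, adjusted p = 0.205). PCK2, the mitochondrial PEP carboxykinase, had 11.82 and 9.44 in shlinc00598#2 cells, against 11.93 and 11.30 in shCTL cells. ASNS, asparagine synthetase, had 14.44 and 12.40 in shlinc00598#2 cells, against 14.37 and 13.62 in shCTL cells. Both were named after their values were seen, as were the next 3. CTH, an enzyme of cysteine synthesis, differed by 0.30 and -1.44, the stress sensor SESN2 by 0.45 and -1.25, and DDIT3, the transcription factor CHOP, by -0.09 and -1.30. CHAC1, which degrades glutathione, had 8.33 and 6.35 in shlinc00598#2 cells, against 7.53 and 7.97 in shCTL cells. It was not detected on the shlinc00598#2 array of replicate 2, so it passed the filter only through shCTL. SLC7A5, a leucine transporter, was lower in both replicates (-0.40 and -0.87). ATF5, a transcription factor of the same family as ATF4, went the other way in both replicates, with 8.60 and 9.83 in shlinc00598#2 cells, against 8.03 and 8.69 in shCTL cells (0.85 ± 0.14, adjusted p = 0.0841).

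**Figure D4:**
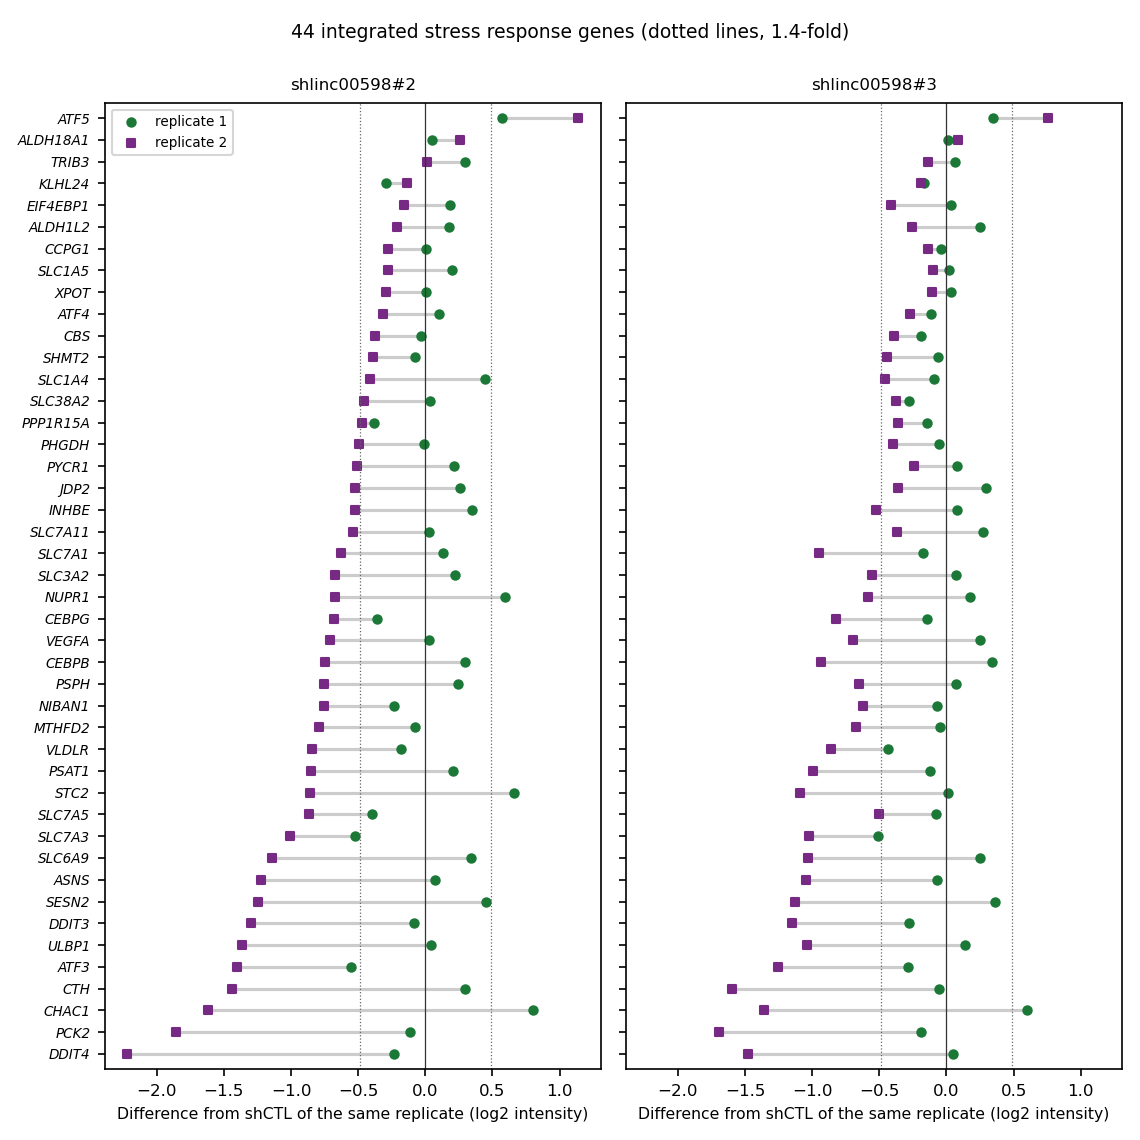
Log2 difference from the shCTL array of the same replicate (x axis) for 44 genes of the integrated stress response, with shlinc00598#2 in the left panel and shlinc00598#3 in the right, circles for replicate 1 and squares for replicate 2. In shlinc00598#2 cells the median is 0.06 in replicate 1 and -0.67 in replicate 2, with ATF5 above 0 in both.

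ATF4 binds a composite element, searched here as TGATGNAA on both strands. It was held by 9 of the 34 measured members with a RefSeq promoter (26.5%), beside 2.73% of tested genes and 3.62% of all promoters. ASNS (chr7:97872409-97872658, minus strand) and CHAC1 (chr15:40953221-40953470, plus strand) are printed because they carry it and differed so much between replicates. Capitals mark the match, which begins 68 bases before the start in ASNS and 209 in CHAC1, where it lies on the other strand.
ASNS: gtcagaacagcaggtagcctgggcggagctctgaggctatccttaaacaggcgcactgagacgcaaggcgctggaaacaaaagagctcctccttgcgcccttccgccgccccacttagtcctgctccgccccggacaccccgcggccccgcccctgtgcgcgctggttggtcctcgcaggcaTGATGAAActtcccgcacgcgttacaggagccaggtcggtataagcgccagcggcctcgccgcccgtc
CHAC1: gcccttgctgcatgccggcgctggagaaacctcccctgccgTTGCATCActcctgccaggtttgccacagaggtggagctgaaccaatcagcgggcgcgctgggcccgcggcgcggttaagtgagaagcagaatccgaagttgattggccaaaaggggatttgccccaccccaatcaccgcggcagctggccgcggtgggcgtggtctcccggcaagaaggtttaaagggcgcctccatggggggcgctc
In replicate 2 the median difference was -0.67 over the 9 members with the element and -0.75 over the 25 without it. The element was held by 4 of the 53 genes with a promoter among those at least 1.4-fold lower in both replicates (7.55%).

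Genes induced by hypoxia were lower in a larger share than genes at large. Hypoxia-inducible factor, which oxygen-dependent prolyl hydroxylation marks for degradation, turns on glucose transport, glycolysis and collagen hydroxylation when oxygen is short. Of 33 measured targets, 23 were lower in both replicates, 4 higher in both and 6 opposite, beside 29.3% and 28.8% of all genes lower and higher in both. Their median difference was -0.24 (-0.25 in replicate 1 and -0.19 in replicate 2), -0.13 with median scaling and -0.27 to -0.19 with single arrays left out. Of the 33, 14 had an unadjusted p under 0.05, all lower, beside 7.35% of all genes. None was called. ANKRD37, an ankyrin repeat protein, had 7.73 and 7.72 in shlinc00598#2 cells, against 8.54 and 8.33 in shCTL cells (-0.71 ± 0.11, adjusted p = 0.0841). P4HA1, the catalytic subunit of collagen prolyl hydroxylase, had 10.43 and 10.33 in shlinc00598#2 cells, against 11.17 and 10.77 in shCTL cells (-0.59 ± 0.12, adjusted p = 0.106). Both genes had separated arrays. In shlinc00598#3 cells, against the same shCTL arrays, the median of the 33 was -0.22, with 21 lower in both replicates and none higher in both. The hypoxia list shares DDIT4 and STC2 with the stress response list, and TXNIP and CITED2 with the FoxO list.

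Among 22 glycolytic genes 14 were lower in both replicates (63.6%) and 4 higher (18.2%), beside 29.3% and 28.8% of all genes. The median of the 22 was -0.14, and 0.00 with median scaling. It was -0.13 in shlinc00598#3 cells, with 14 lower in both replicates and 2 higher in both. ENO2, the neuronal enolase, had 8.54 and 8.22 in shlinc00598#2 cells, against 9.51 and 8.76 in shCTL cells (-0.76 ± 0.13, adjusted p = 0.0841). ALDOC, the brain aldolase, differed by -0.54 ± 0.11 (adjusted p = 0.11) and PFKFB4, which sets fructose 2,6-bisphosphate, by -0.55 ± 0.12 (adjusted p = 0.124). The array values of ENO2 and ALDOC were apart, while those of PFKFB4 overlapped.

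The core of the hypoxia response element, ACGTG, was held on either strand by 19 of the 28 targets with a promoter (67.9%), by 32.9% of tested genes and by 21.4% of all promoters. ANKRD37 (chr4:185396591-185396840, plus strand) and DDIT4 (chr10:72273674-72273923, plus strand) show it in capitals. In ANKRD37 the matches begin 162, 161 and 143 bases before the start, the first pair overlapping on opposite strands as CACGTG, and in DDIT4 the match begins 125 bases before it.
ANKRD37: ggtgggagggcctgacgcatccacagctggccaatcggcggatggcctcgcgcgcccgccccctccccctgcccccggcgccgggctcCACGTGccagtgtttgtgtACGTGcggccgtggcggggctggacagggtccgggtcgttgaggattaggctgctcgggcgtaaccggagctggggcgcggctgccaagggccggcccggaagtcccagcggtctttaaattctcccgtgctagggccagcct
DDIT4: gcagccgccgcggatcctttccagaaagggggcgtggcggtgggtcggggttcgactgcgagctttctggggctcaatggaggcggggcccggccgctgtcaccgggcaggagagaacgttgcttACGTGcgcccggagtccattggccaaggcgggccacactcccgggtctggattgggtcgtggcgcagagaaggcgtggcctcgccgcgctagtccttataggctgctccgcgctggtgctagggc
The 19 targets with the core had a median difference of -0.25 and the 9 without it -0.19. Of the 53 genes with a promoter among those at least 1.4-fold lower in both replicates, 12 held the core (22.6%). This share was below the 32.9% of tested genes.

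FoxO factors, which bind forkhead elements and turn on genes of cell cycle arrest and stress resistance and repress others, include the product of FOXO1, a neighbour of linc00598. FOXO1 itself had 9.08 and 9.36 in shlinc00598#2 cells, against 9.30 and 9.31 in shCTL cells (-0.08 ± 0.11). COG6 had 9.89 and 9.88 in shlinc00598#2 cells, against 10.12 and 9.96 in shCTL cells (-0.15 ± 0.10). Of 35 measured FoxO targets 18 were lower in both replicates, 4 higher in both and 13 opposite, beside 29.3% lower and 28.8% higher among all genes, with a median of -0.14 (-0.08 with median scaling). An unadjusted p under 0.05 was reached by 12, all lower, beside 7.35% of all genes. The list mixes genes that FoxO factors induce with D-type cyclins, which they repress, and its lowest value is that of CCND2 (-1.31). TXNIP and GADD45A were among them, the second a stress protein that interacts with CDK1 and PCNA (-0.64 ± 0.12, adjusted p = 0.0928). For shlinc00598#3 cells the median of the 35 targets was -0.16, with 20 lower in both replicates and 6 higher in both. The forkhead element GTAAACA was held by 4 of the 29 targets with a promoter (13.8%), by 3.49% of tested genes and by 3.42% of all promoters. Of the 53 genes with a promoter among those at least 1.4-fold lower in both replicates, 3 held this element (5.66%). TXNIP (chr1:145996580-145996829, minus strand) carries it 124 bases before the start, in capitals.
TXNIP: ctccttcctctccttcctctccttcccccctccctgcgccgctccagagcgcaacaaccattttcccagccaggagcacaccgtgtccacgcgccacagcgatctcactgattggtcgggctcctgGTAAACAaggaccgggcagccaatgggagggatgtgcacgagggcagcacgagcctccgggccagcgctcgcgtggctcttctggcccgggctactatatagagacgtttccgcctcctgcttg
CITED2, a co-regulator of CBP and p300, differed by -0.68 and 0.09 in replicates 1 and 2, and the kinase PIM1 by -0.52 and -0.04. Both lay near the control in replicate 2. A list of neighbours of linc00598 on chromosome 13 had 16 measured genes and a median of 0.08. Of these 2 were lower in both replicates (12.5%) and 8 higher in both (50%), beside 29.3% and 28.8% of all genes. KBTBD6, an adaptor of a ubiquitin ligase, stood at 0.39 ± 0.12 and FREM2, a basement membrane protein, at -0.26 ± 0.10.

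The cyclin, S-phase and G2/M lists had medians near 0, while CDKN1A was 1.53-fold lower in the mean. Over 19 cyclins and cyclin-dependent kinases the median was 0.04, over 50 S-phase genes 0.07 and over 49 G2/M genes 0.01 (0.18, 0.18 and 0.14 with median scaling). Higher in both replicates were 8 of the cyclin list (42.1%), 20 of the S-phase list (40%) and 16 of the G2/M list (32.7%). Lower in both were 3 (15.8%), 7 (14%) and 10 (20.4%). The shares over all genes were 28.8% higher and 29.3% lower. No S-phase or G2/M gene was 1.4-fold different in the mean, beside 1.14% lower and 0.451% higher among all genes. CDK4, the kinase partner of cyclin D2, had 13.41 and 13.24 in shlinc00598#2 cells, against 13.41 and 13.15 in shCTL cells (0.04 ± 0.10). CCND1, encoding cyclin D1, had 10.64 and 11.70 in shlinc00598#2 cells, against 11.19 and 11.60 in shCTL cells (-0.23 ± 0.15), and CDKN1B, encoding the inhibitor p27, differed by -0.03 ± 0.14. The arrays of all 3 overlapped. Of 10 CDK inhibitors and pocket proteins 6 were lower in both replicates (60%) and none higher in both, beside 29.3% and 28.8% of all genes. The median of the 10 was -0.10, and close to 0 with median scaling. The inhibitor p21, encoded by CDKN1A, had 11.94 and 9.77 in shlinc00598#2 cells, against 12.39 and 10.54 in shCTL cells (-0.61 ± 0.12, adjusted p = 0.104). CDKN2D, encoding p19, differed by -0.38 ± 0.11. Of 20 p53 targets 9 were lower in both replicates (45%) and 3 higher (15%), beside 29.3% and 28.8% of all genes. The median of the 20 was -0.09. TP53I3, an oxidoreductase that p53 induces, stood at 0.47 ± 0.14.

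Immediate early genes, which growth factor signals switch on within minutes through ERK and SRF, were lower mainly in replicate 1. Of 29 measured, 26 were lower in replicate 1 and 19 in replicate 2, beside 8424 and 8485 of all 16836. The medians of the list were -0.32 and -0.04. The mean gave -0.27, with -0.10 without shlinc00598#2 replicate 1 and -0.15 without shCTL replicate 1. For shlinc00598#3 cells the medians were -0.28 in replicate 1 and -0.17 in replicate 2, with 20 lower in both and 2 higher in both. JUN, a subunit of AP-1, had 12.78 and 12.35 in shlinc00598#2 cells, against 13.96 and 12.56 in shCTL cells, a difference of -1.18 in replicate 1 and -0.21 in replicate 2. IER3 differed by -0.64 and -0.26. Targets of YAP and TEAD, which respond to cell density and tension, were also lower mainly in replicate 1, with 21 of 22 lower in replicate 1, 10 in replicate 2 and a median of -0.08. CCN2, a matricellular protein, had 11.15 and 9.99 in shlinc00598#2 cells, against 12.25 and 10.40 in shCTL cells. CCN1, of the same family, had 11.28 and 10.32 in shlinc00598#2 cells, against 12.47 and 10.46 in shCTL cells. In both, the shlinc00598#2 array of replicate 1 lay above the shCTL array of replicate 2. Of 14 ERK feedback genes (median -0.10) 5 were lower in both replicates (35.7%) and 2 higher in both (14.3%). The shares over all genes were 29.3% and 28.8%.

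Most of the measured genes for making ribosomes were higher in shlinc00598#2 cells, by small amounts. Ribosome biogenesis factors process and assemble ribosomal RNA in the nucleolus. Of 49 measured, 38 were higher in both replicates, 2 lower in both and 9 opposite, beside 28.8% higher and 29.3% lower among all genes. Their median was 0.18 (0.18 in replicate 1 and 0.21 in replicate 2) and 0.31 with median scaling, with 0.16 to 0.23 when single arrays were left out. Of the 49, 15 had an unadjusted p under 0.05, all higher, beside 5.94% of all genes. None was called, and 2 were at least 1.4-fold higher in the mean, beside 0.451% of all genes. NOP16, a nucleolar protein of the large subunit, had 10.88 and 11.29 in shlinc00598#2 cells, against 10.55 and 10.57 in shCTL cells (0.52 ± 0.13, adjusted p = 0.153). RRP9, which joins the U3 snoRNP, had 8.28 and 8.92 in shlinc00598#2 cells, against 7.97 and 8.24 in shCTL cells (0.49 ± 0.12, adjusted p = 0.144). Both had separated arrays. UTP20 and UTP14A, parts of the small subunit processome, stood at 0.46 and 0.46. In shlinc00598#3 cells the median over the 49, against the same shCTL arrays, was 0.14.

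Proteasome subunits differed less, with a median of 0.08. Of 27 measured, 16 were higher in both replicates (59.3%) and 1 lower in both (3.7%), beside 28.8% and 29.3% of all genes. Cytosolic heat shock proteins had a median of 0.12 over 20 genes (-0.02 in replicate 1, 0.15 in replicate 2 and -0.03 without shCTL replicate 2), and HSPA8, the constitutive HSP70, differed by 0.29 and 0.79. Aminoacyl-tRNA synthetases, several of which ATF4 also induces, had medians of 0.06 in replicate 1 and -0.18 in replicate 2 over 18 genes. RARS1, which charges tRNA with arginine, stood at 0.38 ± 0.11 and AARS1, which charges it with alanine, at -0.35 ± 0.12. Members of this list thus stood on both sides of 0.

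Of 35 neuronal genes, many of which HEK293 cells express, 21 were lower in both replicates (60%) and 4 higher in both (11.4%). The shares over all genes were 29.3% and 28.8%. The median of the 35 was -0.18, and -0.08 with median scaling. It was also -0.18 in shlinc00598#3 cells, with 20 lower in both replicates and 1 higher in both. STMN3, a stathmin that destabilizes microtubules, had 10.46 and 10.33 in shlinc00598#2 cells, against 10.73 and 11.08 in shCTL cells (-0.51 ± 0.13, adjusted p = 0.167), and NPTX2, a secreted pentraxin of synapses, differed by -0.50 ± 0.13. Both had separated arrays. Actin and adhesion genes had a median of -0.04 over 53, with the fibronectin receptor subunit ITGA5 at -0.51 ± 0.11 in the mean and -0.51 in each replicate. Among 28 caspases and BCL2 family members the median was 0.05, and beside CASP6 the anti-apoptotic BCL2 stood at -0.49 ± 0.13 (adjusted p = 0.16). Over 26 genes of N-glycan branching and terminal glycosylation it was -0.06. Beside MGAT3, FUT8, which adds core fucose, stood at 0.40 ± 0.12 and the mannosidase MAN1C1 at -0.40 ± 0.10. The other members of these 2 lists therefore lay on both sides of the control.

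An shRNA can engage the interferon system and loads the RNA interference machinery, so both lists were read. Of 29 interferon-stimulated genes (median -0.06) 12 were lower in both replicates (41.4%) and 4 higher in both (13.8%). The shares over all genes were 29.3% and 28.8%. IFITM1, a restriction factor at membranes, had 9.34 and 9.15 in shlinc00598#2 cells, against 9.92 and 9.68 in shCTL cells (-0.55 ± 0.10, adjusted p = 0.0978), and IFIT1, which binds viral RNA, stood at -0.40 ± 0.11. UBE2L6, the conjugating enzyme for ISG15, stood at -0.50 ± 0.11. Over 14 genes of the RNA interference machinery the median was 0.04, with XPO5, the exporter of hairpin precursors, at 0.26 ± 0.10 and DICER1 at 0.28 ± 0.12. None of these passed the test.

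**Figure D5:**
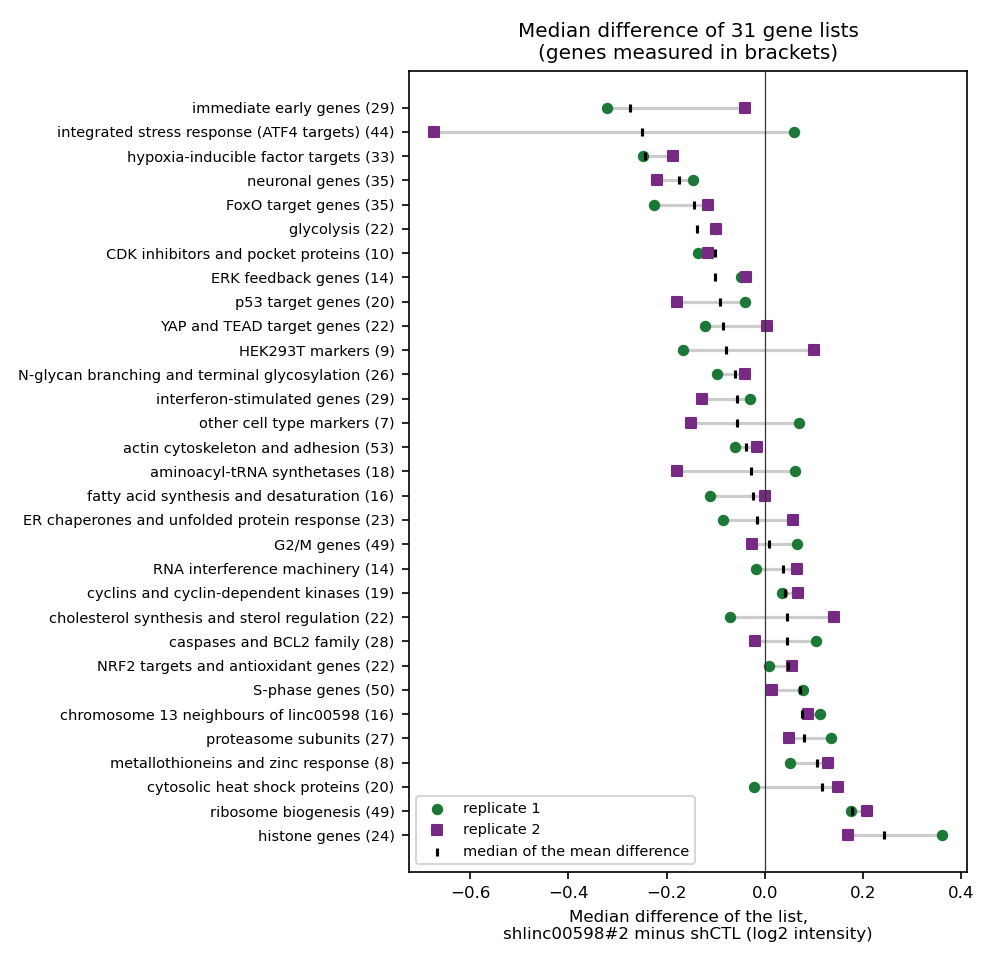
Median log2 difference of shlinc00598#2 minus shCTL (x axis) of each of 31 gene lists, with circles for replicate 1, squares for replicate 2 and bars for the mean difference. The stress response list is at 0.06 in replicate 1 and -0.67 in replicate 2, and the histone list is highest, at 0.24 in the mean.

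The differences of shlinc00598#2 were set beside those of shlinc00598#3 against the same shCTL arrays, which both comparisons share. The 78 genes and probes at least 1.4-fold lower in both replicates of shlinc00598#2 had a median of -0.65 in shlinc00598#2, beside -0.32 in shlinc00598#3, where 14 of them were also past 1.4-fold in both replicates. The 18 higher ones had a median of 0.62 in shlinc00598#2, beside 0.37 in the other line, and 1 of them was past 1.4-fold in both replicates of shlinc00598#3. By direction alone, 71 of the 78 were also lower in both replicates of shlinc00598#3 and 3 were higher in both. Of the 18, 14 were also higher in both and 1 was lower in both. The shared shCTL arrays add to this likeness. Both sets were chosen by their values in shlinc00598#2, so larger medians there follow from the choice and show no difference between the lines. The shlinc00598#3 line had 72 lower (0.428%) and 25 higher (0.148%) by the same criterion, and 2 calls (0.0119%). No gene was called between the lines at an adjusted p under 0.05 (0%), and 1421 had an unadjusted p under 0.05 (8.44%).

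The lowest adjusted p-values between the lines among the named genes belonged to CASP6, H2BC21, SIDT2 and ARHGEF3. CASP6 had 8.57 and 9.05 in shlinc00598#3 cells, and the difference of shlinc00598#2 from shlinc00598#3 was -0.97 ± 0.10 (adjusted p = 0.0788). SIDT2 had 10.82 and 10.60 there and a difference of -0.82 ± 0.10 (adjusted p = 0.0788), and ARHGEF3 had 9.83 and 9.93 and a difference of -0.75 ± 0.10 (adjusted p = 0.0806). In shlinc00598#3 cells these 3 genes lay within 0.06 of shCTL, on either side. Other members were lower in both lines, and further in shlinc00598#3 for some. TNMD stood at -0.78 in shlinc00598#2 cells and -1.11 in shlinc00598#3 cells, SLC2A3 at -0.76 and -1.05, and the desaturase SCD5 at -0.63 and -0.98. MGAT3 stood at -1.02 and -0.45, CCND2 at -1.31 and -0.93, and FBLN1 at -0.81 and -0.19. The difference between the lines was -0.57 ± 0.11 (adjusted p = 0.191) for MGAT3 and -0.62 ± 0.11 (adjusted p = 0.182) for FBLN1, so it did not pass the test for either.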

How the data were processed

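Total RNA of 6 HEK293t samples (2 for each of shlinc00598#2, shlinc00598#3 and shCTL) was read on Illumina HumanHT-12 v4 arrays. The authors exported data with GenomeStudio 2011.1 and deposited the average intensity of each probe before normalization together with its detection p-value. The processed table that the authors also deposited holds log2 intensities after quantile normalization, and 4 of its 6 columns hold another array than the one named (largest difference from the array matched 0.00417). Here the intensities were quantile-normalized over the 6 arrays and log2-transformed with limma 3.58.1 in R 4.3.3, with no background correction. The platform annotation gives 30113 of the 47321 probes 1 gene symbol, 8 several and 17200 none. The brightest kept probe of a gene stood for it, and probes lacking a single symbol were kept as units of their own.

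One limma fit (lmFit and eBayes) to all 6 arrays, with the replicate number as a block and 2 residual degrees of freedom, gave the differences of shlinc00598#2 from shCTL and from shlinc00598#3, with Benjamini-Hochberg adjustment over 16836 genes and probes and a threshold of 0.05. The block rests on the rule of the comparison and on the data: the deviations of same-numbered arrays from their line's mean correlated at 0.746 (shlinc00598#2 and shCTL), 0.764 (shlinc00598#3 and shCTL) and 0.83 (shlinc00598#2 and shlinc00598#3). A fold of 1.4 (0.49 on the log2 scale) was asked of the mean and of each within-replicate difference. Gene lists are described by counts and medians with no test. Some lists share members, so their results are not separate from each other. The comparison, the lists and the tests were chosen with earlier results of these data known.

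Genes were named if called, if among the 14 with the largest mean difference in each direction past 1.4-fold in both replicates (symbols beginning with LOC left out), if among the 4 lowest p-values of a list, if named in the study's text, or if among the 6 with the largest opposite differences in the replicates. The genes DDIT3, PCK2, ASNS, SESN2, CTH, H2BC5, H4C8, H4C15 and H3C10 were chosen after their values were seen, as were HELZ2, HBQ1, GNG4 and POLR2L. Promoter sequences are from RefSeq (GRCh38.p14), with windows of 250 bases before and 50 after the start for 35116 promoters, and 9678 tested genes matched by symbol. The fit was tested on simulated data. Alternatives were neqc background correction (offset 16), median scaling, the authors' processed values, other detection filters, other ways to join probes, the fit without the block, the 4 arrays alone, the methods' t-test, other folds and each array of shlinc00598#2 and shCTL left out in turn. The number of arrays limits the precision.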

Additional observations from a re-analysis of the deposited data

Results flagged for a closer look

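2 of the named genes drew attention because the arrays of shlinc00598#2 stood on one side of shCTL and those of shlinc00598#3 on the other, though close to shCTL. With unnamed probes and genes not named here included, 3 of the 78 lower members and 1 of the 18 higher ones had this pattern. H2BC21 was above shCTL by 0.69 and 0.77 in replicates 1 and 2 of shlinc00598#2 and stood at -0.08 and -0.04 in shlinc00598#3, a difference between the lines of 0.79 on the log2 scale (limma adjusted p = 0.0788). CASP6 stood at -0.92 and -0.89 in shlinc00598#2 and at 0.01 and 0.12 in shlinc00598#3, a difference of -0.97 (limma adjusted p = 0.0788). Neither difference passed the test, and both comparisons share the shCTL arrays.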

How the results depend on the processing

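The count of genes called lower (3) was 0 without the replicate block, with only the 4 arrays of the 2 lines, with neqc, with the mean of the kept probes, with a detection p under 0.01, in the authors' processed values and with the methods' t-test after Benjamini-Hochberg adjustment. It was 120 with median scaling, 64 with no detection filter (of 37254 genes and probes), 349 with the methods' t-test unadjusted, and 0 to 150 with single arrays left out, which were those of shlinc00598#2 and shCTL throughout. The count called higher (0) was 314 with median scaling, 14 with no filter, 295 with the unadjusted t-test and 0 to 134 with single arrays left out. Between the lines, none became 253 with median scaling, 28 with no filter and 0 to 177 with single arrays left out. The 3 calls were shared by the calls with median scaling, with no filter, with every probe on its own (4 calls), without shCTL replicate 1 and without shCTL replicate 2.

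In the mean, 192 lower and 76 higher became 636 and 454 with neqc, 108 and 267 with median scaling, 37 and 40 in the authors' processed values, 87 and 25 at 1.5-fold, 4 and 0 at 2-fold, and 227 to 352 and 109 to 301 with single arrays left out. In both replicates, 78 lower and 18 higher became 280 and 162 with neqc, 30 and 90 with median scaling, 6 and 6 in the authors' processed values, 31 and 4 at 1.5-fold and 0 and 0 at 2-fold. With 1 replicate alone they were 339 to 412 lower and 172 to 397 higher. Median scaling moved the median of all genes by 0.08.

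Of the genes and the unnamed probe named in the text, the 33 past 1.4-fold in both replicates kept their sign in every alternative run except the authors' processed values read by their own column names, where 27 changed sign: ALDOC 0.089, ANKRD37 0.064, ARHGEF3 0.37, ATF3 0.56, ATF5 -0.39, CASP6 0.45, CCND2 0.60, DPH2 -0.13, FBLN1 0.33, FEZ1 0.33, GALR2 -0.027, H2BC12 -0.24, H2BC21 -0.42, H4C14 -0.13, IFITM1 0.17, ILMN_1792389 0.32, ITGA5 0.23, MGAT3 0.33, MMP23B 0.22, RSU1 -0.22, SIDT2 0.44, SLC2A3 0.089, SLC7A3 0.25, SNORA73A -0.083, TXNIP 0.35, UGT3A2 0.35 and ZSCAN5A -0.16. There 4 of the 6 columns hold another array, so groups are mixed by construction. Without shCTL replicate 2 the medians of the stress response (0.06), heat shock (-0.03), cholesterol (-0.10), aminoacyl-tRNA synthetase (0.05) and other cell type marker (0.06) lists changed sign. With another array left out, so did those of the G2/M, ER chaperone, HEK293T marker, caspase and RNA interference lists. Probes near the background have compressed differences, and 1593 genes were detected on fewer than all 4 arrays. With 2 arrays a line and 2 residual degrees of freedom, a difference that missed the threshold is not shown to be absent.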

Other observations

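6 genes had large differences of opposite sign in the replicates, CHAC1, STC2 and NUPR1 of the stress response list and FJX1 of the YAP and TEAD list among them. CHAC1 stood at 0.80 in replicate 1 and -1.62 in replicate 2, STC2, a secreted glycoprotein of calcium balance, at 0.66 and -0.86, NUPR1, a small stress-induced chromatin protein, at 0.60 and -0.67, and MST1, which encodes a secreted ligand of the receptor RON, at 0.62 and -0.62. DEPP1, a FoxO-induced regulator of autophagy, stood at -0.65 and 0.58 and FJX1, a secreted Golgi-linked protein, at -0.73 and 0.57. The mean difference of each was between -0.41 and 0.00, so it hides 2 opposite differences.

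Lipid, redox and metal genes had medians near 0, which median scaling moved up. The median over 22 genes of cholesterol synthesis was 0.04 (0.14 with median scaling and -0.10 without shCTL replicate 2), with NSDHL, a sterol dehydrogenase, at 0.42 and TM7SF2, a sterol reductase, at -0.45. Over 16 genes of fatty acid synthesis it was -0.02, and SCD5 stood at -0.63 (limma adjusted p = 0.0928), with both shlinc00598#2 arrays below both shCTL arrays. Over 22 NRF2 targets the median was 0.05 (0.18 with median scaling), with HMOX1, heme oxygenase, at 0.32, and over 8 metallothioneins and zinc response genes it was 0.11 (0.21 with median scaling), with MT1E at 0.30 and MT1F at -0.29. Metallothionein genes are so alike that a probe may read several. The median over 23 ER chaperones and genes of the unfolded protein response was -0.02. None of these genes passed the test.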
